A study of Mus musculus with 185 samples.

Results

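The superior and inferior colliculi, the paired mounds of the dorsal midbrain that process vision and hearing, were compared between mice fasted for 24 h and mice kept on chow. The collicular libraries were chosen by measured values. The deposited table gives 5 columns of counts for each mouse without the brain region of each column, so the columns were selected on the levels of Pax7, Tfap2b and Tfap2d, transcription factors of the dorsal midbrain. A column's marker score was the mean log2(CPM + 1) of these 3 genes, where CPM is the count of a gene per 1000000 counts of the column. In each mouse, among columns with at least 1000000 counts, the 2 with the highest score were taken as colliculi if both lay at least 0.5 above the third, and their counts were added up. This gave 32 of the 95 columns of the 24 h study, from 8 chow and 8 fasted mice, from a table of 37 mice with 5 columns each. The selection left out 3 mice, of which 142.3 and 145.4 are labelled as having had tubes exchanged and the other, a fasted mouse, has no such note in its labels, and the 3 marker genes were left out of the comparison.

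All 16 mice were male C57BL/6 J, an inbred strain, 8 weeks old when obtained, with water freely available. They lived alone for 3 days on chow before the experiment, and were then assigned at random to stay on chow or to lose access to food for 24 h. Tissue of the left hemisphere was sequenced as total RNA after removal of ribosomal RNA. Chow mice changed in body weight by -0.351% to 3.46% (median 0.383%) over the 24 h, and fasted mice by -20.7% to -17.1% (median -19.7%). Each mouse was 1 replicate, so the p-values measure the spread among mice. In bulk tissue, fewer cells of a type and less RNA per cell cannot be told apart.

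The chosen columns carried the markers by construction. The median CPM over the 32 columns was 8.39 for Pax7, 15.4 for Tfap2b and 28.8 for Tfap2d, against 0.271, 0.458 and 0.141 in the other 44 columns of the same mice. Of the mice used, 13 had a gap of at least 1.86 between the lower of the 2 chosen columns and the next one. The other 3 lay just inside the threshold: chow mouse 145.1 with scores of 4.46 and 3.83 (gap 0.638), fasted mouse 144.4 with 1.45 and 0.776 (gap 0.676), and chow mouse 142.2 with 1.19 and 0.454 (gap 0.739). The labels call the inferior colliculus of mouse 145.1 suboptimal. A list of 15 other transcription factors that mark the colliculi, which the choice did not use, summed to a median of 356 CPM in the chosen columns and 77.2 CPM in the rest, with overlapping ranges. In the second column of chow mouse 142.2, other markers went against its choice as collicular. This column of 4596549 counts held 70.1 CPM of these factors, against 185.04 to 491 CPM in the other 31 collicular columns, and 372 CPM of hypothalamus markers, against 1.25 to 37.2 CPM. Another column of that mouse had a marker score of 3.69 but only 350968 counts. Results that rest on mouse 142.2 are given with and without it.

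**Figure D1:**
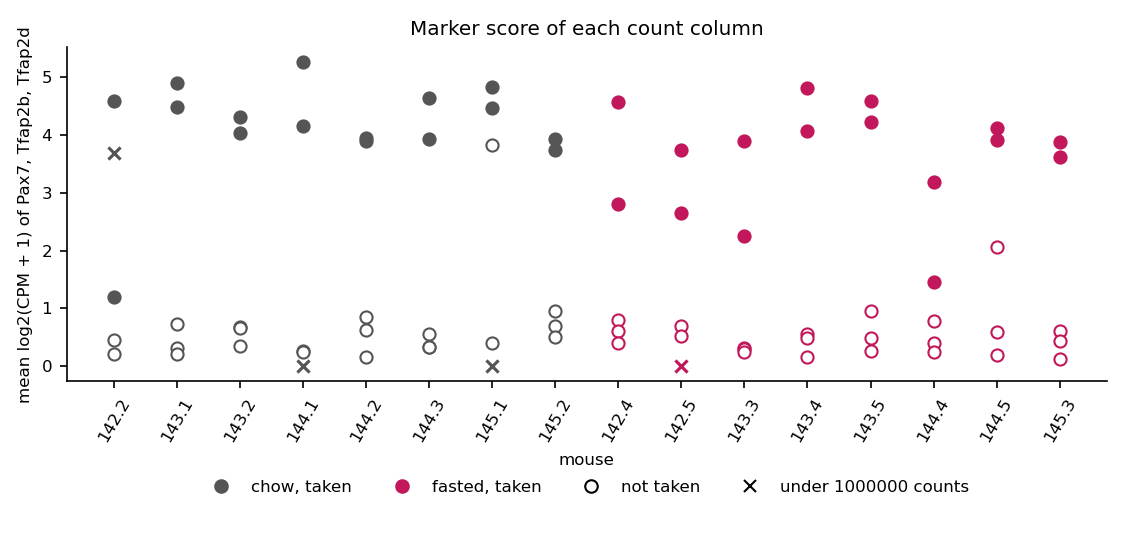
Marker score (mean log2(CPM + 1) of Pax7, Tfap2b and Tfap2d) of every count column of the 16 mice, grey for chow and magenta for fasted. Filled circles are the 2 columns taken per mouse, open circles columns not taken and crosses columns under 1000000 counts; the narrow gaps of 142.2, 145.1 and 144.4 and the low second column of 142.2 at 1.19 stand out.

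Depth and library quality differed between mice. The collicular counts per mouse ran from 18691441 to 95974476 on chow and from 12224609 to 52165010 in the fasted group. By the labels, a collicular library failed quality control at alignment in 3 of 8 chow mice and in 6 of 8 fasted mice. Only this failure is meant by a failed library here. The labels put each of these on a flowcell apart from the other collicular libraries of the 24 h study, with no RNA detected. The paper reports that this block was sequenced separately and discarded as defective. Here no column was left out for a failed library, so the diets were not balanced over the flowcells. In 7 columns, from 2 chow and 5 fasted mice, a draw of 500000 counts was expected to hold 13166 to 15692 genes, against 16166 to 19241 in the other 25, which are called sound columns here. Failed libraries thus went with the fasted group. Their part in the results was not tested beyond the counts without them and a fit with their number as a covariate, both given below. Mitochondrial genes took 8.34% to 23.1% of counts (median 8.91%) on chow and 8.70% to 22.2% (median 11.7%) in the fasted mice, and the TMM factor, by which edgeR rescales a mouse's total count, had a median of 1.09 on chow and 0.913 after fasting. The part of these differences in the results was not tested. CPM values per mouse, given below for the summed collicular columns, use the total count rescaled by the TMM factor.

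Fasting was compared with chow over all genes of the collicular sums. Of 24719 genes tested with edgeR's quasi-likelihood test, 4462 (18.1%) passed a Benjamini-Hochberg adjusted p of 0.05. Of these, 2871 (11.6%) were higher in the fasted mice and 1591 (6.44%) lower, with a median log2 fold change of -0.00 over all genes tested. The groups did not overlap in 743 called genes, 524 higher and 219 lower, and 556 called genes changed by at least 1 on the log2 scale, 225 up and 331 down. With sound columns only, 3970 of 23139 genes (17.2%) were called, 2002 higher (8.65%) and 1968 lower (8.51%), close to an even split, a set of columns defined after the data had been seen. Among mice without any failed collicular library, 5 on chow and 2 fasted, 99 genes were called, 79 higher and 20 lower. The 2 fasted mice were 142.5 and 144.5, and mouse 142.5 had lost the least weight of the fasted mice (-17.1%). The part of this mouse in the smaller counts and medians of that set was not tested. With so few genes called, 0 called members of a list in that set is no result about the list. With all mice but chow mouse 142.2, the count of called genes was 3342 (1865 higher, 1477 lower). Without fasted mouse 143.3, labelled as slightly apathetic, it was 2873. Without the 3 mice near the threshold of the choice, it was 2118 (1159 higher, 959 lower).

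Fasting is known to raise circulating glucocorticoids, steroid hormones of the adrenal cortex that bind a receptor inside the cell. The receptor then acts as a transcription factor on short palindromic DNA elements near its target genes. Corticosterone, the main glucocorticoid of mice, enters the brain, and many of its known target genes are switched on in glia and blood vessels as well as in neurons. The hormone itself was not measured here.

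The rule for named genes took its largest rises and falls only from called genes whose groups did not overlap. The lack of overlap in them is thus no result. Of the 10 largest rises by that rule, 6 were in genes listed as glucocorticoid-responsive. For 2 of these, Sgk1 and Map3k6, and for Mt1, another member of that list, the region around a start site is shown because it holds a palindrome of the receptor's element. Sequences are RefSeq promoters of GRCm38.p6, 250 bases before to 50 bases after a start site, 5′ to 3′ on the gene's strand, and capitals mark the match.
Sgk1, chr10:21993640-21993939, plus strand: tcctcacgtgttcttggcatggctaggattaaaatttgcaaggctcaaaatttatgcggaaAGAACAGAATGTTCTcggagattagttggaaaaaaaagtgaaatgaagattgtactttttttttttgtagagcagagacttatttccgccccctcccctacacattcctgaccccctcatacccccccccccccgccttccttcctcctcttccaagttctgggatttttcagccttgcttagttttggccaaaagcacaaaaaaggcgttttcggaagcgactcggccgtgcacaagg
Map3k6, chr4:133240568-133240867, plus strand: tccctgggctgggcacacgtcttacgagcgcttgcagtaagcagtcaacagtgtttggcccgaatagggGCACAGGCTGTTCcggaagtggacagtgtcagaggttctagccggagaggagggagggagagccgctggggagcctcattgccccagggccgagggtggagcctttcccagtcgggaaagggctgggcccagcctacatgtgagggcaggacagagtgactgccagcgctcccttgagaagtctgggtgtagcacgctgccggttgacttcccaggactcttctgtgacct
Mt1, chr8:94178839-94179138, plus strand: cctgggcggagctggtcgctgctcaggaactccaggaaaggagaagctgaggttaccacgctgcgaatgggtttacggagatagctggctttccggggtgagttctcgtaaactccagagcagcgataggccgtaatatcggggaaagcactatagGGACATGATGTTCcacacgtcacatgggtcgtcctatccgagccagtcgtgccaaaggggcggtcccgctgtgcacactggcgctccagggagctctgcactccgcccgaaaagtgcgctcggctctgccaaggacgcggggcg

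Both motifs searched are palindromes, so each match counts for both strands. The strict motif, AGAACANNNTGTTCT, was found in 3 of 32851 promoters (0.00913%), among them 1 of the windows of Sgk1, where it starts 189 bases before the start site. The looser motif, GNACANNNTGTNC, which contains every strict match, was found in 0.475% of promoters. Of 20 glucocorticoid-responsive genes listed for this comparison, 18 had an entry, with 28 promoters in all, and 3 of those held the looser motif, in Sgk1, Map3k6 and Mt1 (94 bases before the start). A match of letters is a description and no evidence of binding.

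All 20 listed glucocorticoid-responsive genes rose in the fasted mice, with log2 fold changes from 0.79 to 4.46 and a median of 1.84, beside a median of -0.00 over all genes and the 11.6% called higher. For 17 of the 20 the groups did not overlap, beside 743 called genes without overlap among all 24719 tested. Summed over the list, CPM ran from 506 to 761 (median 557) on chow and from 1033 to 2146 (median 1901) in the fasted mice, without overlap. The lowest fasted sum was that of mouse 142.5, against 1620 to 2146 CPM in the other fasted mice. With sound columns only, 20 rose with a median of 1.66, beside 8.65% of all genes called higher. Among the mice without a failed collicular library, 12 passed the test, beside 79 called higher over all genes. There all 20 were positive, with a median of 1.41. The list was written with earlier results of these data known, so its direction is no independent evidence.

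Cdkn1a (ENSMUSG00000023067, chr17:29309936-29319701 in GRCm39), which encodes the cell cycle inhibitor p21, showed the largest rise of the named genes. Its CPM ran from 2.82 to 6.45 (median 4.65) on chow and from 33.4 to 151.7 (median 113.9) after fasting. Every fasted mouse was above every chow mouse, and the log2 fold change was 4.46 ± 0.27 (SE; edgeR adjusted p = 8.35e-09, n = 8 per group). The antisense gene Dino overlaps Cdkn1a, and the strand setting of the counts is not given in the sources used here. Plin4, a protein of lipid droplets, ran from 7.24 to 10.5 CPM (median 8.17) on chow and from 60.9 to 138.1 CPM (median 106.4) in the fasted mice. The log2 fold change was 3.58 ± 0.15 (SE; edgeR adjusted p = 1.66e-10), the lowest adjusted p of all genes tested.

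Sgk1, a kinase that regulates ion channels and transporters and a classic target of the receptor, ran from 27.9 to 43.6 CPM (median 33.5) on chow. In the fasted mice it ran from 145.95 to 275 CPM (median 228). The groups lay apart, with a log2 fold change of 2.67 ± 0.12 (SE; edgeR adjusted p = 2.22e-10). Map3k6, a kinase of stress signalling, rose from a median of 2.17 CPM (1.62 to 2.68) to 14.4 CPM (7.77 to 20.5). The log2 fold change was 2.76 ± 0.18 (SE; edgeR adjusted p = 1.42e-08). The arrestin-like Arrdc2 ran from 7.06 to 9.16 CPM (median 8.50) on chow and from 30.4 to 53.9 CPM (median 46.9) after fasting, a log2 fold change of 2.41 ± 0.11. Hif3a, a member of the hypoxia-inducible factor family, ran from 4.59 to 8.53 CPM (median 6.24) on chow and from 24.5 to 41.0 CPM (median 33.5) after fasting, a log2 fold change of 2.40 ± 0.13. In each of these the groups did not overlap, as the rule for named genes required.

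Other members act as brakes on signalling or as hormone-response genes. Nfkbia, the inhibitor of NF-κB, ran from 10.4 to 15.2 CPM (median 12.4) on chow and from 29.0 to 58.2 CPM (median 44.2) in the fasted mice, a log2 fold change of 1.84 ± 0.12 (SE). Fkbp5, a co-chaperone that lowers the receptor's hormone affinity, ran from 17.4 to 31.6 CPM (median 21.5) on chow and from 34.3 to 123.2 CPM (median 84.4) after fasting. Its log2 fold change was 1.86 ± 0.20 (SE), and 1.22 without a significant adjusted p (0.0902) among mice with no failed collicular library. The metallothionein Mt1, which binds zinc and copper, ran from 66.1 to 184.7 CPM (median 77.3) and from 137.03 to 440 CPM (median 281), and here the groups overlapped. Its log2 fold change was 1.46 ± 0.26 (SE; edgeR adjusted p = 0.00115). The smallest changes of the list were those of Klf9, a transcription factor that also answers thyroid hormone, at 0.79 ± 0.10 (SE), and of the clock gene Per1, at 0.85 ± 0.10 (SE).

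**Figure D2:**
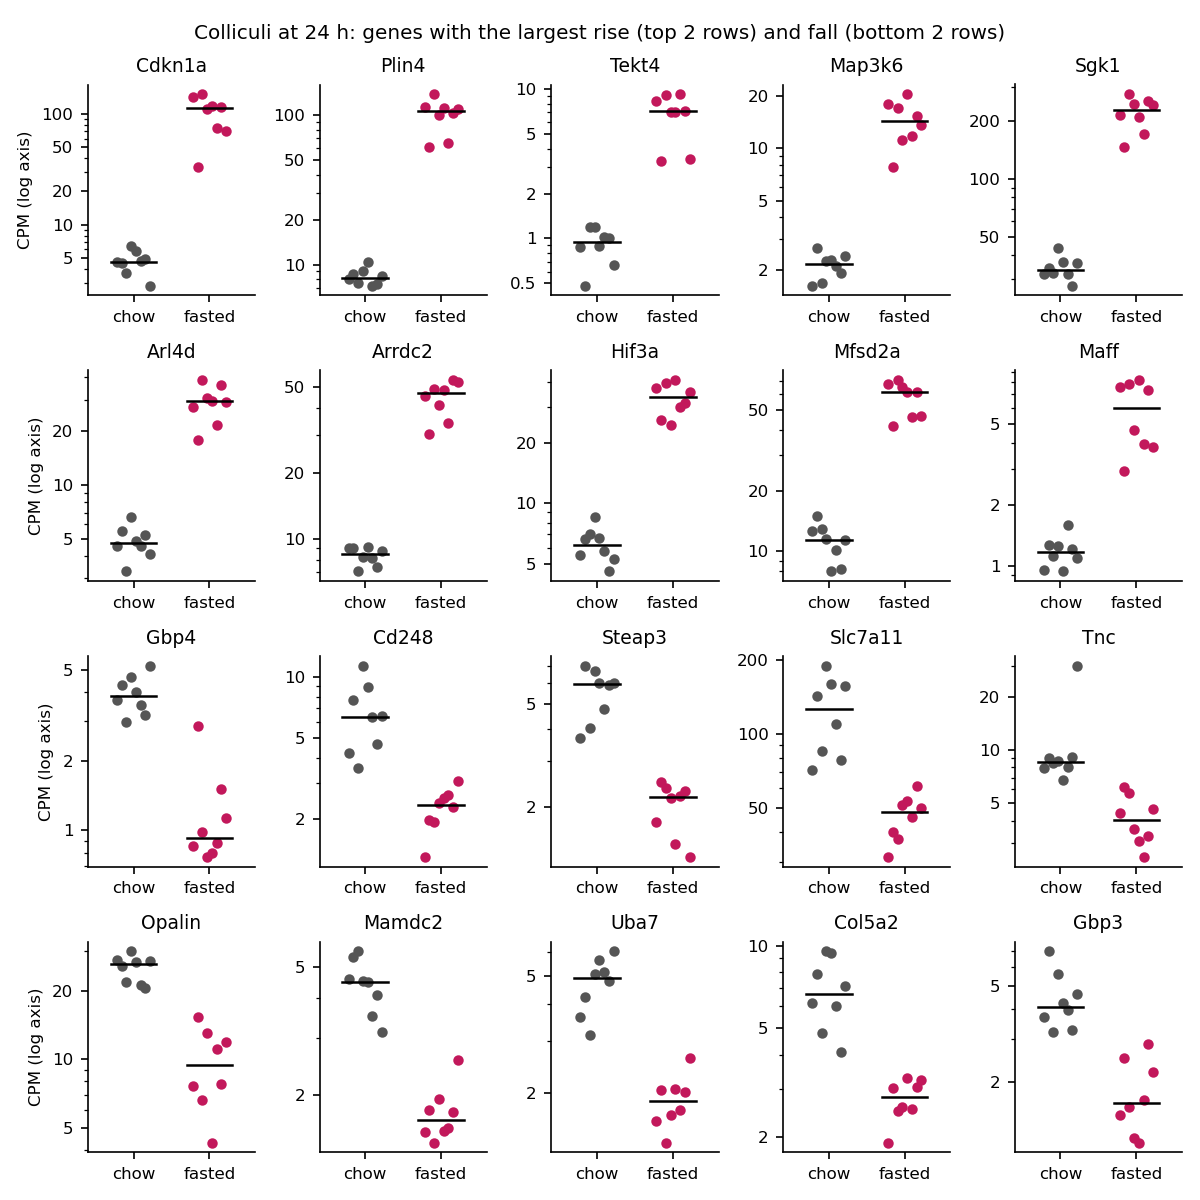
CPM per mouse, on log axes, of the 10 genes with the largest rise and the 10 with the largest fall among named genes of the colliculi, grey for chow and magenta for fasted, with a bar at the median of 8 mice. In all 20 panels the groups do not overlap, because only genes without overlap could be picked. For Cdkn1a the medians are 4.65 and 113.9 CPM, and for Gbp4 3.84 and 0.929 CPM.

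The 10 largest rises by the rule for named genes included 4 outside the glucocorticoid list. Tekt4, a protein of ciliary microtubules, ran from 0.483 to 1.20 CPM (median 0.952) on chow and from 3.31 to 9.29 CPM (median 7.11) after fasting, a log2 fold change of 2.92 ± 0.24. Arl4d, a small GTPase, ran from 3.28 to 6.58 CPM (median 4.72) and from 17.8 to 38.8 CPM (median 29.4), a log2 fold change of 2.58 ± 0.16. The transcription factor Maff rose by 2.31 ± 0.22 on the log2 scale, from a median of 1.17 CPM (0.942 to 1.59) to 5.97 CPM (2.92 to 8.21). Mfsd2a, the carrier of lysophospholipids across the blood-brain barrier, had CPM of 7.96 to 14.9 (median 11.4) on chow and 41.6 to 70.7 (median 61.5) after fasting, with a log2 fold change of 2.36 ± 0.14. All 10 passed the test in every alternative, including the 5 chow and 2 fasted mice without a failed collicular library.

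The 10 largest falls were smaller than the largest rises. Among the 5 chow and 2 fasted mice without a failed collicular library, 0 of these 10 passed edgeR's test, and all 10 were negative, and in every other alternative all 10 passed. Gbp4, an interferon-induced GTPase, ran from 2.97 to 5.22 CPM (median 3.84) on chow and from 0.764 to 2.86 CPM (median 0.929) in the fasted mice. The change on the log2 scale was -1.66 ± 0.25 (SE; edgeR adjusted p = 0.000229), and reads could be shared with its near copies Gbp8 and Gbp9, which overlap it. Gbp3, of the same family, had a log2 fold change of -1.30 ± 0.21 (SE). The interferon-induced Uba7, which activates ISG15 for attachment to proteins, had CPM of 3.15 to 6.05 (median 4.92) and 1.36 to 2.63 (median 1.88), a log2 fold change of -1.32 ± 0.15.

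Cd248, a receptor of pericytes and fibroblasts, ran from 3.56 to 11.4 CPM (median 6.39) on chow and from 1.31 to 3.08 CPM (median 2.35) after fasting, a log2 fold change of -1.56 ± 0.22 (SE). The collagen gene Col5a2 ran from 4.09 to 9.53 CPM (median 6.65) and from 1.90 to 3.27 CPM (median 2.80), and fell by 1.32 ± 0.17. Tnc, the matrix protein tenascin C, had a log2 fold change of -1.41 ± 0.29, with chow values of 6.78 to 30.0 CPM, the highest in mouse 145.1, and fasted values of 2.49 to 6.15 CPM. Mamdc2 fell by 1.34 ± 0.14. Markers of the meninges and fibroblasts were also lower in the fasted mice. With their mean level as a covariate, an alternative added after the data had been seen, the 10 falls had log2 fold changes of -1.60 to -0.92, against -1.66 to -1.30 without it, and each passed edgeR's test. The value of Cd248 moved most, to -0.92. Slc7a11, the cystine-glutamate exchanger of astrocytes and meningeal cells, ran from 71.2 to 190 CPM (median 126.6) on chow and from 31.5 to 61.6 CPM (median 48.1) after fasting, a log2 fold change of -1.42 ± 0.20. Steap3, a reductase of iron, fell by 1.45 ± 0.17, and Opalin, a membrane protein of myelinating oligodendrocytes, by 1.38 ± 0.20, from a median of 26.3 CPM (20.6 to 29.9) to 9.46 CPM (4.29 to 15.4).

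**Figure D3:**
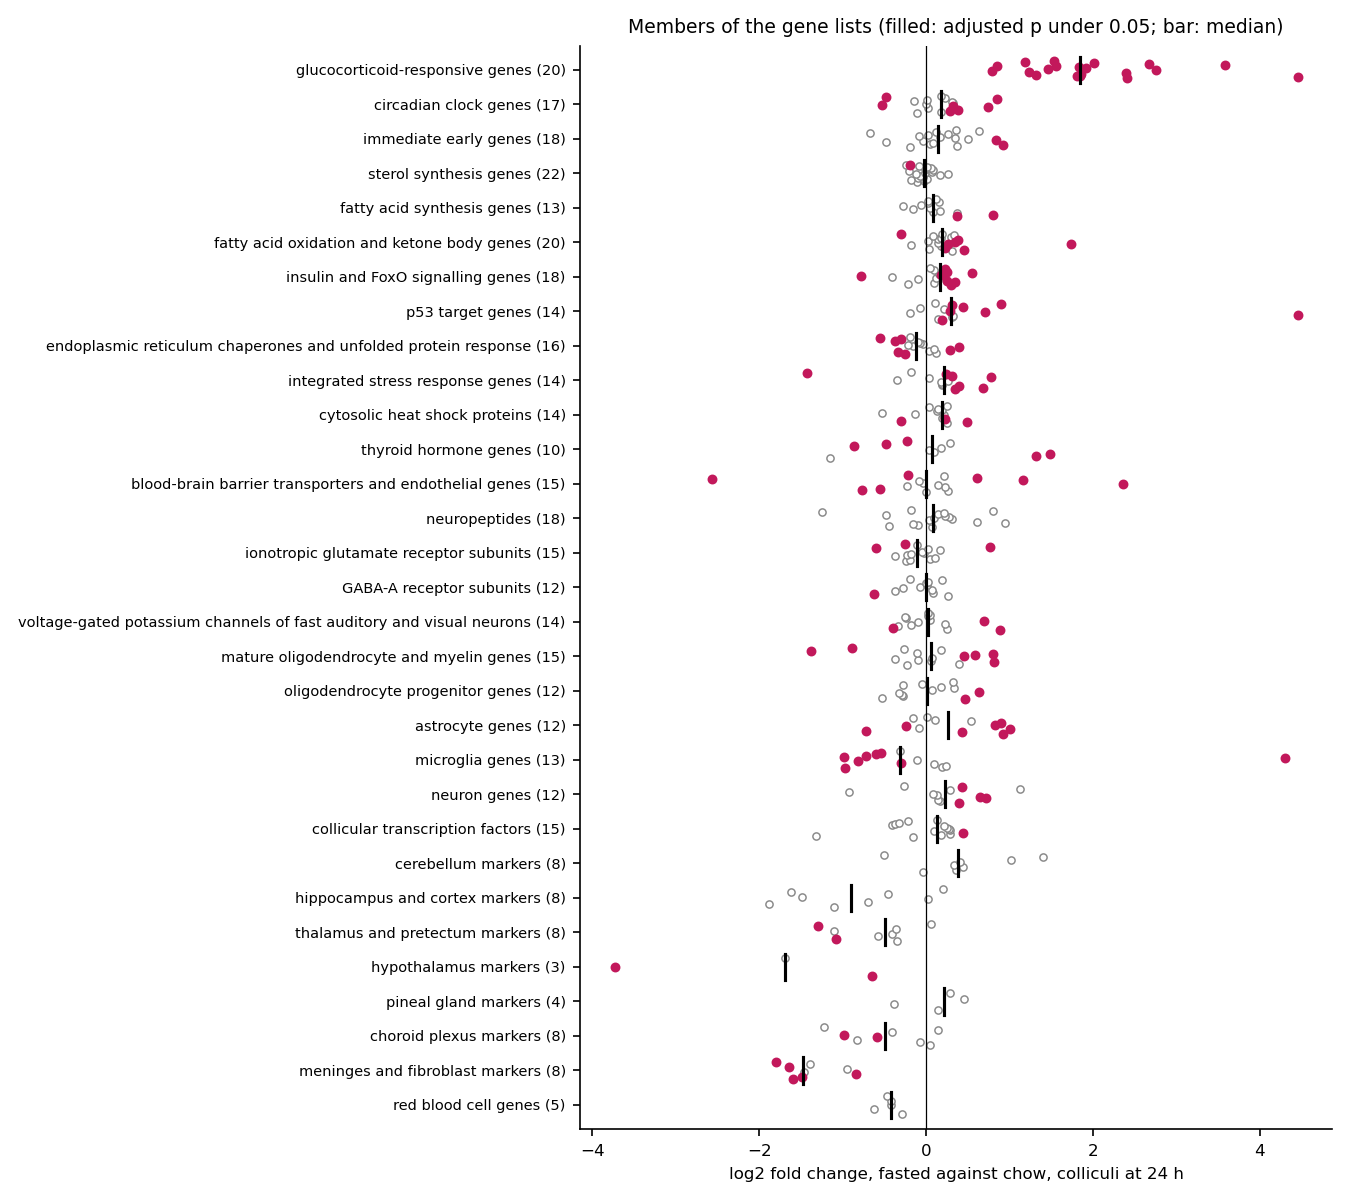
Log2 fold change (fasted against chow) of each tested member of the 31 gene lists in the colliculi at 24 h, with the number tested in parentheses, filled points for members past the adjusted p of 0.05 and a bar at the list median. The glucocorticoid-responsive genes all lie to the right of 0 with a median of 1.84, and the meninges and fibroblast markers all to the left with a median of -1.48.

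The list of circadian clock genes held 5 of 17 higher and 2 lower, with a median of 0.18, beside 11.6% and 6.44% of all genes. Per1, a clock repressor that glucocorticoids also induce, ran from 50.0 to 67.4 CPM (median 61.97) on chow and from 77.3 to 149.2 CPM (median 106.7) after fasting. Cry1 ran from 17.5 to 23.7 CPM (median 19.6) and from 23.3 to 44.8 CPM (median 34.3), overlapping slightly, with a log2 fold change of 0.74 ± 0.12 (SE). Per3, another period gene, went the other way, from 74.6 to 85.9 CPM (median 78.3) on chow to 46.0 to 66.1 CPM (median 57.8) after fasting, a log2 fold change of -0.48 ± 0.07. Cry2 had a log2 fold change of 0.32 ± 0.06. Among the mice without a failed library, 0 clock genes were called higher and 2 lower, beside 79 and 20 of all genes, with a median of -0.05. There Per3 was called (-0.43, edgeR adjusted p = 0.036), while Per1 (0.64, 0.136), Cry1 (0.32, 0.218) and Cry2 (0.11, 0.57) were not, with log2 fold change and edgeR adjusted p in parentheses. Euthanasia took place at clock hours of 9.17 to 11.1 on chow and 9.42 to 10.9 in the fasted group. Of 18 immediate early genes, which mark recent activity of a cell, 2 were higher and 0 lower, beside the same shares of all genes. Their median was 0.15, and none was called by edgeR among the mice without a failed library. The 2 were Dusp1, a phosphatase of MAP kinases (0.92 ± 0.12), and Fos (0.83 ± 0.20). The CPM of Fos overlapped between 4.85 to 13.1 (median 9.18) and 10.1 to 21.9 (median 16.9).

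Of 20 genes of fatty acid oxidation and ketone bodies, 6 were higher and 1 lower, beside 11.6% and 6.44% of all genes, with a median of 0.19. With sound columns only, the counts were 3 and 3, beside 8.65% and 8.51% of all genes. Among the mice without a failed library they were 1 and 0, beside 79 and 20 of all genes, the called member being Angptl4. Angptl4, a secreted inhibitor of lipoprotein lipase and a target of fasting in many tissues, ran from 1.66 to 3.20 CPM (median 1.95) on chow and from 4.44 to 9.64 CPM (median 7.25) after fasting, without overlap. This was a log2 fold change of 1.74 ± 0.18 (SE; edgeR adjusted p = 4.65e-06). Cpt1a, the gate of fatty acids into mitochondria, ran from 26.2 to 41.6 CPM (median 32.5) and from 34.1 to 50.0 CPM (median 41.9), a log2 fold change of 0.35 ± 0.09. The change of Acadl, an enzyme of the oxidation itself, was 0.45 ± 0.11, and it was not called with sound columns only (0.22, edgeR adjusted p = 0.088). Of 13 genes of fatty acid synthesis, 2 were higher, beside 11.6% of all genes. They were Acacb (0.81 ± 0.08) and Acaca (0.37 ± 0.07), both acetyl-CoA carboxylases. Of 22 genes of sterol synthesis, 0 were higher and 1 lower, Tm7sf2 (-0.19 ± 0.06), with a median of -0.03. Tm7sf2 lost its call when any of 4 of the 16 mice was left out (highest edgeR adjusted p = 0.0695).

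Of 18 genes of insulin and FoxO signalling, 7 were higher and 1 lower, beside 11.6% and 6.44% of all genes. Among the mice without a failed library, edgeR called 0 of them, with a median of 0.05. Irs2, an adaptor of the insulin receptor, ran from 74.1 to 107.7 CPM (median 94.1) on chow and from 107.3 to 166.8 CPM (median 141.3) after fasting, with a log2 fold change of 0.55 ± 0.10. Foxo1 had a log2 fold change of 0.35 ± 0.08 and was not called with sound columns only (0.20, edgeR adjusted p = 0.10). Igfbp5, which binds insulin-like growth factors, fell from a median of 223 CPM (190 to 270) to 132.5 CPM (99.7 to 156.2), without overlap and with a log2 fold change of -0.78 ± 0.10. The 14 p53 target genes held 7 higher and 0 lower, beside the same shares of all genes, with a median of 0.30. Among the mice without a failed library, 1 was higher. Cdkn1a is a member of both this list and the glucocorticoid list, and the next largest changes were those of Trp53inp1 (0.89 ± 0.09) and Gtse1 (0.71).

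Of 16 chaperones of the endoplasmic reticulum and genes of the unfolded protein response, 2 were higher and 5 lower, beside 11.6% and 6.44% of all genes. Herpud1, which takes part in degradation of misfolded proteins, ran from 38.8 to 49.9 CPM (median 43.5) and from 51.3 to 66.8 CPM (median 57.7), and Sdf2l1 fell by 0.55 ± 0.12. Of 14 genes of the integrated stress response, 6 were higher and 1 lower, beside the same shares of all genes. Psat1, an enzyme of serine synthesis, ran from 54.5 to 88.2 CPM (median 69.8) on chow and from 103.2 to 160 CPM (median 114.7) after fasting. The lower member was Slc7a11. Among the mice without a failed library, edgeR called 0 members of both lists, with a median of 0.02 for the second. Of 14 cytosolic heat shock proteins, 2 were higher and 1 lower, beside the same shares of all genes. Bag3 (0.49 ± 0.11) and Dnaja1 (0.22 ± 0.07) were higher, and Chordc1 (-0.31 ± 0.06) was lower. Dnaja1 lost its call when any of 13 of the 16 mice was left out (highest edgeR adjusted p = 0.131).

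Thyroid hormone reaches the brain through transporters and is activated there by the deiodinase Dio2, an enzyme of astrocytes. Of 10 listed genes tested, 2 were higher and 3 lower, beside 11.6% and 6.44% of all genes, and 1 higher and 0 lower among the mice without a failed library. Dio2 ran from 25.4 to 44.9 CPM (median 31.1) on chow and from 45.9 to 98.6 CPM (median 89.3) after fasting, and the groups just missed overlapping. Its log2 fold change was 1.32 ± 0.14 (SE; edgeR adjusted p = 6.51e-06). Hr, a corepressor of the thyroid hormone receptor and one of its targets, ran from 39.9 to 52.1 CPM (median 43.2) and from 74.2 to 157.7 CPM (median 140), a log2 fold change of 1.48 ± 0.13. Slco1c1, a thyroid hormone transporter of the blood-brain barrier, fell by 0.48 ± 0.13 on the log2 scale, with overlap.

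At the blood-brain barrier, transporters moved in both directions. Of 15 genes, 3 were higher and 4 lower, beside 11.6% and 6.44% of all genes, and 3 higher and 0 lower among the mice without a failed library. Slc2a1, the glucose transporter GLUT1, ran from 48.1 to 81.6 CPM (median 65.5) on chow and from 105.3 to 175.1 CPM (median 147.8) after fasting, without overlap and with a log2 fold change of 1.16 ± 0.12 (SE; edgeR adjusted p = 5.31e-06). Slc7a5, a carrier of large neutral amino acids, rose by 0.61 ± 0.11, with overlap. Slc38a5, a glutamine transporter of endothelial cells, ran from 1.82 to 4.50 CPM (median 2.35) on chow and from 0.224 to 1.05 CPM (median 0.339) after fasting, and fell by 2.57 ± 0.33 on the log2 scale. The endothelial genes Cdh5 (-0.77) and Cldn5 (-0.55) and the junction protein Tjp1 (-0.21) made up the rest of the lower members.

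Among glial genes, 5 of 12 astrocyte genes were higher and 2 lower, beside 11.6% and 6.44% of all genes. Among the mice without a failed library, 1 was higher, Fgfr3, and 0 lower. Fgfr3, a growth factor receptor of astrocytes, ran from 84.96 to 120 CPM (median 96.8) and from 170 to 224 CPM (median 204), a log2 fold change of 1.00 ± 0.08 and one of 0.82 without failed libraries (edgeR adjusted p = 0.017). Glul, glutamine synthetase, ran from 1269 to 1888 CPM (median 1494) on chow and from 2077 to 3943 CPM (median 2854) after fasting. Agt, angiotensinogen, rose by 0.92 ± 0.11. Aqp4, the water channel of astrocyte endfeet, went down from 225 to 360 CPM (median 260) to 143.5 to 206 CPM (median 157.96), a log2 fold change of -0.72 ± 0.10. Without failed libraries the edgeR adjusted p was 0.156 for Glul, 0.112 for Agt and 0.269 for Aqp4.

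Of 13 microglia genes, 1 was higher and 7 lower, beside 11.6% and 6.44% of all genes, with a median of -0.31. The list sum was 152.7 to 200 CPM (median 169) on chow and 126.6 to 181.7 CPM (median 144.2) after fasting, with overlap. P2ry12, a receptor of resting microglia, ran from 12.3 to 16.8 CPM (median 14.0) on chow and from 6.55 to 10.0 CPM (median 8.59) after fasting, a log2 fold change of -0.72 ± 0.10. Siglech and Tmem119, both largely of microglia, fell by 0.61 ± 0.11 and 0.54 ± 0.11. Among the mice without failed libraries, none of the 7 lower members passed the test. The member that rose was Itgad, an integrin subunit of macrophages, which ran from 0.0952 to 0.283 CPM (median 0.244) on chow and from 2.11 to 5.81 CPM (median 4.68) after fasting. Its log2 fold change was 4.30 ± 0.23 (SE; edgeR adjusted p = 1.37e-09) and 3.85 without failed libraries (edgeR adjusted p = 0.004). It overlaps the opposite-strand gene Cox6a2 and several other annotated genes, so its reads cannot be told apart without the strand of the counts.

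Oligodendrocyte genes were mixed. Of 15 mature oligodendrocyte and myelin genes, 4 were higher and 2 lower, beside 11.6% and 6.44% of all genes, and edgeR called 0 among the mice without a failed library. Mobp and Mbp, myelin structural proteins, had log2 fold changes of 0.80 ± 0.14 and 0.59 ± 0.13, with CPM of 483 to 908 (median 665) and 960 to 1484 (median 1141) for Mobp. Ugt8a, an enzyme of myelin lipid synthesis, fell by 0.89 ± 0.14, as Opalin did. Of 12 progenitor genes, 2 were higher, beside 11.6% of all genes. They were Neu4 (0.63 ± 0.13) and Bcas1 (0.47 ± 0.13), the second of newly forming oligodendrocytes. Bcas1 was not called without fasted mouse 143.3 (0.38, edgeR adjusted p = 0.0613).

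Of 12 neuron genes, 4 were higher and 0 lower, beside 11.6% and 6.44% of all genes. Log2 fold changes ran from -0.93 to 1.12 over the list. The called members were the neurofilaments Nefh (0.72 ± 0.18) and Nefm (0.65 ± 0.18), Snap25 (0.43 ± 0.09) and Gad1 (0.39 ± 0.10), the last an enzyme of GABA synthesis. None of the 4 was called among the mice without failed libraries, and Nefm was not called without fasted mouse 143.3 (0.54, edgeR adjusted p = 0.0546). Of 18 neuropeptides, 0 were called in either direction, and the one with the lowest p was Tac2 (-1.24 ± 0.44, edgeR adjusted p = 0.0586). Of 15 ionotropic glutamate receptor subunits, 1 was higher and 2 lower, beside the same shares of all genes. Grin2c was higher (0.77 ± 0.17) and Grin2b (-0.60 ± 0.14) and Grin3a (-0.25 ± 0.06) lower. Gabra2 was the only called member of 12 GABA-A receptor subunits, with CPM of 30.9 to 48.2 (median 36.8) on chow and 21.6 to 29.7 (median 23.6) after fasting, a log2 fold change of -0.63 ± 0.10. Among the potassium channels, Kcna1, which repolarizes fast-firing axons, had a log2 fold change of 0.89 ± 0.13, while Kcna4 had -0.39 ± 0.10. Of 15 collicular transcription factors, Gata2 was called (0.45 ± 0.10) and 14 were not.

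Markers of neighbouring tissues, which a dissection could include, were measured in the same sums. All 8 meninges and fibroblast markers were negative, 5 of them called, beside 6.44% of all genes called lower, with a median of -1.48. Their summed CPM ran from 51.1 to 513 (median 182.7) on chow and from 47.1 to 115.2 (median 92.3) in the fasted mice, with overlap. With sound columns only, 8 of 8 were called, beside 8.51% of all genes called lower. Without any failed library, 0 of 8 passed edgeR's test, beside 20 called lower over all genes. Collagen Col1a1 ran from 13.5 to 112.9 CPM (median 47.3) on chow and from 10.2 to 26.5 CPM (median 18.4) after fasting. Of 8 choroid plexus markers, Kl (-0.99 ± 0.24) and Kcnj13 (-0.58 ± 0.20) were called, the latter not when any of 13 of the 16 mice was left out (highest edgeR adjusted p = 0.0909). The list sum was 43.6 to 86.4 CPM (median 59.8) on chow and 34.0 to 52.1 CPM (median 45.3) after fasting.

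Of 8 thalamus and pretectum markers, Synpo2 and Lef1 were called, beside 6.44% of all genes called lower. Their log2 fold changes were -1.29 ± 0.38 and -1.08 ± 0.35. Synpo2 ran from 12.9 to 92.2 CPM on chow, with 92.2 CPM in mouse 145.1 and at most 18.9 CPM in the others. Without that mouse the log2 fold change was -0.64 for Synpo2 (edgeR adjusted p = 0.00728) and -0.80 for Lef1 (0.0874). Lef1 lost its call when any of 10 of the 16 mice was left out. The list sum was highest in chow mouse 145.1, at 1129 CPM, against 473 to 662 CPM in the other chow mice and 361 to 717 CPM in the fasted mice. Of 8 hypothalamus markers, 3 were tested, and Avp and Agrp (-0.64) were called. Agrp lost its call when any of 6 of the 16 mice was left out (highest edgeR adjusted p = 0.0623). As annotated, Agrp overlaps Ripor1, Ctcf and several other genes, so its reads cannot be told apart without the strand of the counts. Avp ran from 0.0635 to 40.3 CPM (median 0.251) on chow, with 40.3 CPM in mouse 142.2 alone, and its log2 fold change of -3.73 ± 1.26 became 0.33 without that mouse. The red blood cell list had 0 of 5 called, with a sum of 855 CPM in mouse 142.2. None of the 8 cerebellum markers and none of the 8 hippocampus and cortex markers was called by edgeR. Of 8 pineal gland markers, 4 were tested and 0 called. The part these tissues had in the other results was not tested beyond the covariate fits. Adding the mean level of the meninges markers to the fit as a covariate, again after the data had been seen, gave 5985 called genes, and that of the thalamus markers 3494.

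**Figure D4:**
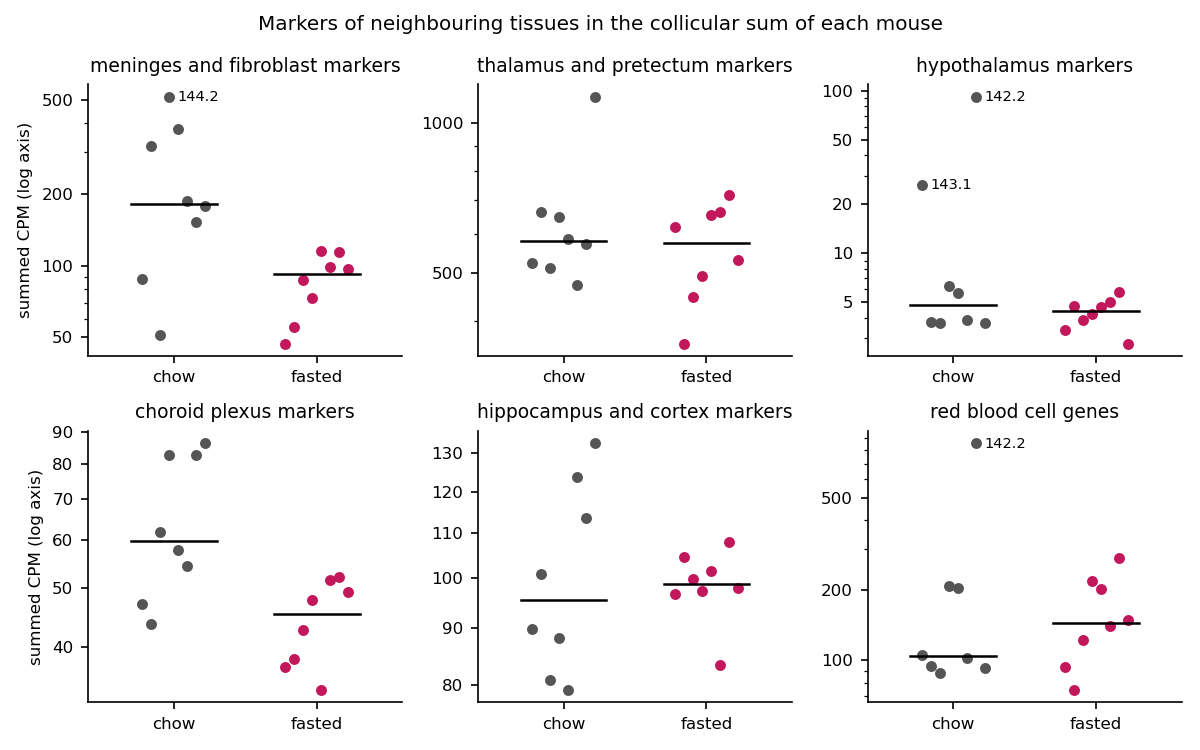
Summed CPM of 6 marker lists of neighbouring tissues per mouse, on log axes, for the collicular sums of 8 chow (grey) and 8 fasted (magenta) mice, with a bar at the median. The meninges markers reach 513 CPM on chow and 115.2 CPM in the fasted group, and mouse 142.2 is highest for hypothalamus markers and red blood cell genes.

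The fasting effect was then compared with that in the other columns of the same 16 mice, which were added up per mouse. By the study's design these would be hypothalamus, hippocampus and zona incerta, but the region of no column is given. Some collicular tissue may be among them. A column of chow mouse 145.1 in this sum had a marker score of 3.83, and the collicular transcription factors reached 547 CPM in these columns. In mouse 142.2, a column with high hypothalamus markers stands in the collicular sum. With mouse as a block, edgeR's test of the difference called 0 of 26534 genes (0.0%), while 2409 had an unadjusted p under 0.05 and the lowest adjusted p was 0.185. A gene that misses this threshold is not shown to respond alike. The glucocorticoid-responsive genes had a median log2 fold change of 1.69 in the other columns, beside 1.84 in the colliculi. The difference between the tissues for single members ran from -0.51 for Hif3a, with an edgeR adjusted p of 0.289, to 0.72 for Mt2. For Cdkn1a it was 0.17 ± 0.18 and for Sgk1 0.14 ± 0.20. Slc38a5 differed by -1.55 ± 0.54 and Agrp by -1.73 ± 0.43, both with an edgeR adjusted p of 0.54. The overlap of Agrp with other genes limits this value too.

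The last comparison set the effect in the colliculi at 24 h against that in mice fasted for 16 h, chosen in the same way from 6 chow and 6 fasted mice. At 16 h, the body weight of the fasted mice had changed by -7.52% to -1.30%. With edgeR, 0 of 26132 genes (0.0%) were called at 16 h, while 1699 had an unadjusted p under 0.05 and the lowest adjusted p was 0.143. The effects of the studies differed in 810 genes (3.1%), 425 higher and 385 lower at 24 h. This count was 1296 without fasted mouse 142.5, 694 without chow mouse 142.2, 454 without the 3 mice near the threshold and 13 among mice without a failed collicular library. The last set kept the 16 h mice 1, 6 and 12, whose labels flag a collicular library as an outlier of a principal component analysis. The 16 h mice were housed in pairs, with a hemisphere drawn at random, and were sequenced apart, so duration, housing and sequencing cannot be told apart. Diet was drawn by cage at 16 h, and the fit took each mouse as a replicate without a term for the cage. The p-values and SEs that use the 16 h mice thus do not allow for the cage.

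The glucocorticoid-responsive genes, listed with earlier results of these data known, had a median log2 fold change of 0.31 at 16 h. There 18 of 20 were positive. By the test, 18 of 20 had a larger change at 24 h, beside 425 of all 26132 genes. The other 2, Mt1 and Mt2, had a difference of 0.95 and 1.17 with an adjusted p of 0.116 and 0.191. Arrdc2 changed by 0.45 ± 0.14 at 16 h, and the difference was 1.93 ± 0.19 (edgeR adjusted p = 2e-06). For Cdkn1a the difference was 3.72 ± 0.39, for Sgk1 2.14 ± 0.23 and for Nfkbia 1.61 ± 0.17, each with an edgeR adjusted p under 0.05. Slc38a5 (-2.50 ± 0.42) and Hr (1.64 ± 0.21) also differed between the studies. Tnc did not pass (edgeR adjusted p = 0.0889).

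**Figure D5:**
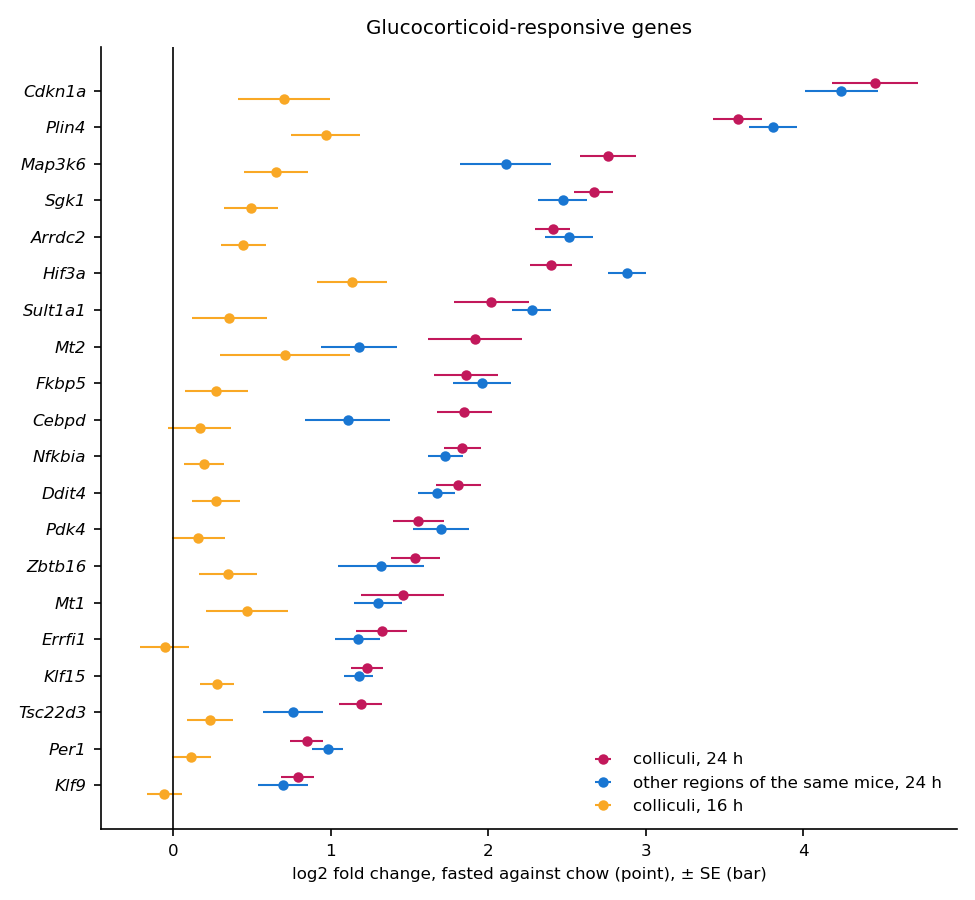
Log2 fold change, fasted against chow, of the 20 glucocorticoid-responsive genes, with bars of 1 SE. Magenta is the colliculi at 24 h, blue the other columns of the same mice at 24 h, and yellow the colliculi at 16 h. The magenta and blue points lie between 0.70 and 4.46, and the yellow points between -0.06 and 1.13.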

How the data were processed

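Per the labels and the study's methods, the authors used STAR 2.7.3a with GRCm39 and its gene counting mode. The deposited values are whole read counts of each Ensembl gene. The counts were not normalized or filtered. The annotation release and the strand setting are not given in the sources used here. Each of 37 headings names 1 sample of 1 mouse and stands over 5 columns. The 5 columns were taken to be of that mouse, whose label gives the diet, and this was not tested. No column was assigned to a labelled region or sample. Of 57010 genes, 56310 had a symbol in GENCODE vM39 for GRCm39. The members and gene lists were chosen with earlier results of these data known.

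Counts of the 2 collicular columns were summed per mouse and tested in R 4.3.3 by edgeR 4.0.16 (genes kept by filterByExpr, TMM factors, glmQLFit, glmQLFTest, Benjamini-Hochberg adjusted p under 0.05), with 8 chow and 8 fasted mice. The other columns of each mouse entered with mouse as a block, because both sums come from 1 animal. The 16 h mice entered as a further group. CPM values printed per mouse, of genes and of list sums, are from the summed counts, with the mouse's total count rescaled by its TMM factor. CPM values of single columns use the column's total count without this factor. The depth was 12224609 to 95974476 counts per mouse, and limits genes of low CPM most. Reads carry no molecular identifiers.

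Named genes are the 10 largest rises and 10 largest falls of called genes whose mean log2 CPM reached 1 and whose diets did not overlap, up to 4 called members with the lowest p of each list (or the member with the lowest p), and up to 6 and 4 genes of the other tests. Other list members named beside them were chosen after their values were seen. Alternatives used DESeq2 1.42.0, limma 3.58.1 and sva 3.50.0, other size factors, filters, columns, covariates and mice. The scripts were tested on simulated data. The table of sample labels was not used for values. Some genes that the rule for named genes picked are not reported here.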

Additional observations from a re-analysis of the deposited data

Results flagged for a closer look

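In the 97 named genes, 194 groups of 8 mice were looked at for a mouse far from the others of its group (Dixon's 95% criterion), and 11 were found. Chance alone gives about 1 in 20. On chow, mouse 145.1 stood apart with 30.0 CPM of Tnc, 758 CPM of Grin2b and 92.2 CPM of Synpo2. Chow mouse 142.2 did so with 40.3 CPM of Avp and 41.8 CPM of Alas2, and chow mouse 144.2 with 3.83 CPM of Kcnj13 and 15.2 CPM of Nfkbia. Among the fasted mice, 142.5 had 2.86 CPM of Gbp4, 144.5 had 2.56 CPM of Mamdc2, and 143.5 had 122.7 CPM of Asns and 1.86 CPM of Lum.

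The fasting effect in the colliculi differed between 24 h and 16 h, by edgeR's interaction test, in 810 genes. By the rule for named genes these included Cdkn1a (difference 3.72 on the log2 scale), Sgk1 (2.14), Arrdc2 (1.93) and Nfkbia (1.61). Duration, housing and sequencing differ together between the studies and cannot be told apart.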

How the results depend on the processing

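Of 92 called named genes, 90 kept their call and direction with RLE size factors, 90 with DESeq2, 79 with limma on columns of equal weight, 72 without the 3 mice near the threshold of the choice and 19 among the mice without a failed collicular library. The number of genes called at 24 h was 99 and 2118 in the last 2 of these settings, in reverse order, and 2873 to 4702 when each mouse was left out in turn. The number that differed between 24 h and 16 h was 13 among mice without a failed library, 454 without the 3 mice and 591 to 1296 when each mouse was left out. The smaller sets hold fewer mice, and otherwise the cause was not tested. With the number of failed collicular libraries as a covariate, 87 of the 92 kept their call and direction. RLE size factors gave 3842 genes (2158 higher, 1684 lower) and a filter on a sum of counts over 10 gave 3436 (1729 higher, 1707 lower). The comparison with the other columns called 0 genes in every alternative, 0 also without mouse as a replicate block, and with no calls in either fit the effect of the block on calls cannot be judged. The groups of different mice on the 2 diets share no pairing.

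Avp reversed, from -3.73 to 0.33 without chow mouse 142.2, 0.21 among mice without a failed library, 0.31 without the 3 mice and 0.35 with DESeq2, and it ran from -3.97 to 0.33 when each mouse was left out. Among mice without a failed library, Alas2 turned to 0.14 and Calb2 to -0.017, neither called in any of these fits. Sound columns and the failed-library, meninges and thalamus covariates were added after the data had been seen. Depth limits genes of low CPM.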
